A study of Mus musculus with 10 samples.

Results

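The 10 genes described here encode the parts of the MHC class I antigen-presentation pathway: the heavy chains *H2-K1* and *H2-D1*, the light chain *B2m*, the peptide transporter subunits *Tap1* and *Tap2*, the loading factor *Tapbp*, the inducible proteasome subunits *Psmb8*, *Psmb9* and *Psmb10*, and the transcriptional activator *Nlrc5*. They were taken by symbol from the 54532 genes of the deposited table, and all 10 were found. They were put together because their values differed between light-exposed and control retinas in these same samples, so that their difference between the groups is given as a description and is not tested.

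RNA-seq was done on 10 neural retinas from BALB/c mice aged 2 months, a strain without eye pigment to screen the retina from light. All mice were dark-adapted for 12 h, after which those of the LD group (5 retinas) were kept under 15000 lux and those of the NL group (5 retinas) under 200 lux, the normal light level in the labels, for 1 day. No allele, transgene or drug is named for either group, the labels do not say whether each retina is from a separate mouse, and p-values measure only the spread between these samples.

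MHC class I molecules carry peptides from inside the cell to its surface, where cytotoxic T cells and natural killer cells inspect them. Proteasomes cut proteins into peptides, the TAP transporter moves these into the endoplasmic reticulum, and tapasin holds empty class I molecules at TAP until a peptide is bound. Interferons raise most of these genes together through STAT and IRF factors and the class I activator NLRC5, and they replace the constitutive catalytic subunits of the proteasome by the inducible ones, which gives the immunoproteasome. Neural retina is known for low class I levels when healthy.

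Between 18965090 and 26832535 reads per retina were recovered from the deposited FPKM, which are fragments per kilobase of gene scaled by library size. Some retinas stood apart within their group. The class I gene *H2-Bl*, on chromosome 17 from 36080115 to 36084223, was at 35.7 FPKM with 1551 reads in NL-8 and at 0.205 FPKM or less in the other 9 retinas, and *H2-K1* was low in NL-4 and NL-8. The values of class I heavy chain genes that move most with these 2 retinas are also given without them, a choice made after the data were seen. Among the 20 heavy chain genes tested, *H2-K1*, *H2-D1* and *H2-T10* were lower in both of them than in the other 3 NL retinas, and *H2-Q5*, *H2-Q6*, *H2-Q7*, *H2-T22*, *H2-T23* and *H2-T24* were higher in both. Whether all 10 retinas carry the same MHC haplotype was not tested. The 3 pairs NL-5 and NL-7, LD-1 and LD-7, and LD-4 and LD-6 were closer than the other 17 pairs within a group: over 5766 genes averaging 10 FPKM or more, the SD of their log2 differences was 0.13 to 0.15, against 0.24 to 0.43. The photoreceptor markers *Gnat1*, *Sag*, *Pde6b*, *Rcvrn*, *Nrl*, *Arr3* and *Opn1sw* were all detected, and summed to 4844 to 5692 FPKM in NL but to 768 to 1604 FPKM in LD. In bulk tissue fewer cells of a type and less RNA per cell cannot be told apart.

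All 10 genes were higher in every LD retina than in any NL retina. Their median difference between the groups was 3.38 on the scale of log2(FPKM + 0.1), against -0.01 over all 24508 genes tested. A gene was called changed when its limma p, adjusted over all genes tested, was under 0.01 and the groups were over 2-fold apart. This was so for 6.51% of the genes tested, with 4.13% higher and 2.37% lower after LD, and in 11.8% the LD values all exceeded the NL values. Since the genes were chosen on this contrast, nothing is read from their own counts.

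The classical class I heavy chains present peptides to CD8 T cells. *H2-K1* lies on chromosome 17 from 33996017 to 34000333, positions being on GRCm38 throughout. Its FPKM was 3.60 in NL-1, 1.30 in NL-4, 3.44 in NL-5, 3.27 in NL-7 and 1.52 in NL-8, and it was 30.9 in LD-1, 37.1 in LD-4, 38.7 in LD-6, 33.7 in LD-7 and 18.6 in LD-8. The NL retinas thus fell into 3 higher and 2 lower ones, and LD-8 was the lowest LD retina at 5.17 times the highest NL value. The means were 2.63 ± 1.12 and 31.8 ± 7.95 FPKM (SD, n = 5 each), a log2 difference of 3.62, which was 3.13 without NL-4 and NL-8.

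*H2-D1*, on chromosome 17 from 35262730 to 35267499, was the most abundant of the 10 genes per length by mean in both groups. In LD-1 and LD-7, *B2m* was above it, at 153 and 175 FPKM. Its NL values were 59.5 (NL-1), 32.2 (NL-4), 56.6 (NL-5), 54.0 (NL-7) and 38.6 FPKM (NL-8). Its LD values were 136 (LD-1), 221 (LD-4), 215 (LD-6), 158 (LD-7) and 203 FPKM (LD-8). NL-4 and NL-8 were again the lowest NL retinas, but LD-8, the lowest for *H2-K1*, was neither lowest nor highest here. The means were 48.2 ± 12.0 and 186 ± 37.6 FPKM (SD, n = 5 each), 3.87-fold apart, with a log2 difference of 1.96, which was 1.69 without NL-4 and NL-8.

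The balance between the heavy chains shifted along with their level. The ratio of *H2-D1* to *H2-K1* FPKM was 16.5 to 25.4 in NL and 4.39 to 10.9 in LD, with LD-8 the highest of the latter, and the groups did not overlap. NL-4 and NL-8 had 24.8 and 25.4, and the other 3 NL retinas had 16.5 each. BALB/c carries the H2d haplotype, whereas the reference genome is that of C57BL/6J with H2b, and class I heavy chain genes are close copies of each other. How reads of one gene were divided among its copies is not given in the sources used here, so the split between *H2-K1*, *H2-D1* and the H2-Q and H2-T genes is uncertain.

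The light chain *B2m*, beta-2-microglobulin, pairs with every class I heavy chain. The gene lies on chromosome 2 from 122147686 to 122153083, inside the span of *Patl2* on the opposite strand, which was at 0.0368 FPKM in NL and 0.0217 FPKM in LD on average. *B2m* was at 20.5 (NL-1), 13.8 (NL-4), 14.1 (NL-5), 11.6 (NL-7) and 19.0 FPKM (NL-8), and at 153 (LD-1), 142 (LD-4), 157 (LD-6), 175 (LD-7) and 114 FPKM (LD-8). The lowest LD retina, LD-8, was 5.56 times the highest NL retina. With means of 15.8 ± 3.75 and 148 ± 22.6 FPKM (SD, n = 5 each) the log2 difference was 3.24. Per unit of summed *H2-K1* and *H2-D1* FPKM there was 0.203 to 0.474 of *B2m* in the NL and 0.514 to 0.921 in the LD retinas, and without NL-4 and NL-8 the former was 0.203 to 0.325.

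**Figure D1:**
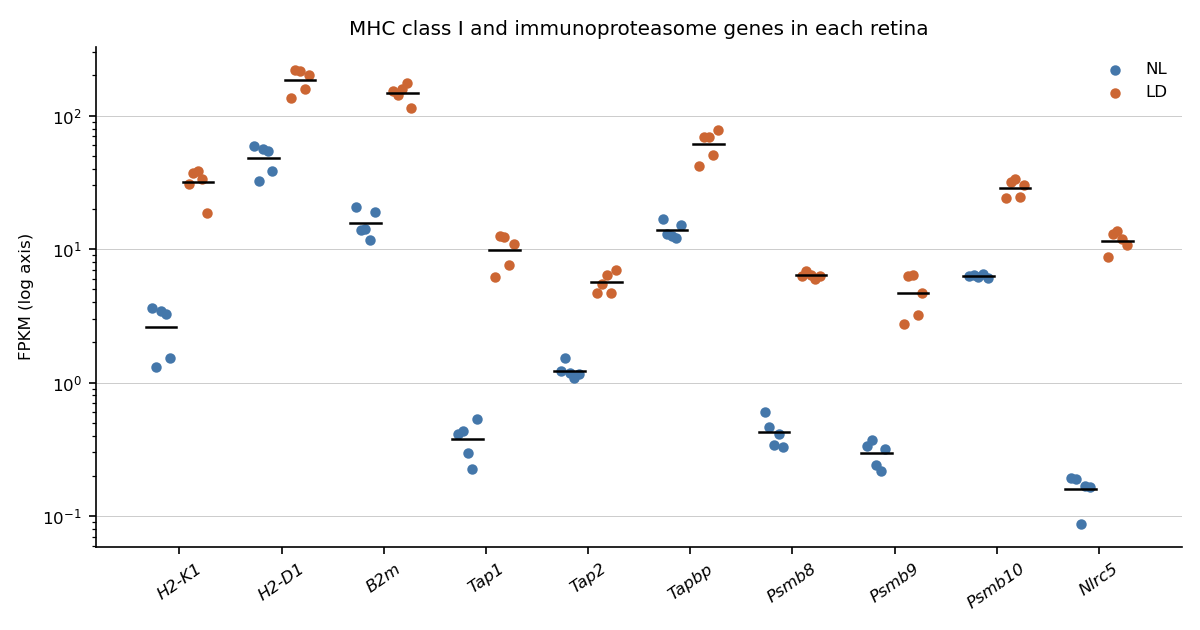
FPKM of the 10 genes (log axis) in each of the 5 NL retinas (blue) and 5 LD retinas (orange), with black lines at the group means. Every LD point lies above every NL point of its gene, and the gap between group means runs from 3.87-fold for *H2-D1* to 72.4-fold for *Nlrc5*.

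Promoters of class I genes carry sites known to be used by NF-kB, IRF and STAT factors and by the complex that NLRC5 joins. RefSeq windows (GRCm38.p6) were at hand for 8 of the 10 genes, all but *Tap2* and *Nlrc5*. In the 250 bases before each start, both strands were searched for the NF-kB type motifs GGGATTCCC and GGACTTTCC, the IRF type motif AANNGAAA, the STAT type motif TTCNNNGAA, TGACG (the core of a CRE, as in the X2 box of class I promoters) and CCAAT. These motifs were chosen with the sequences in view. The start is that of RefSeq, and the windows of *H2-D1*, *Tapbp*, *Psmb8* and *Psmb9* lie inside their deposited genes, not before them. The stretch shown for *H2-D1* is in the 5′ UTR of a longer GENCODE transcript. The sequences shown are those of the heavy chain *H2-K1* and of the light chain *B2m*, where several motifs stand close together without overlap, and a 30-base stretch that *H2-K1* and *H2-D1* share, with motif matches in capitals.
*H2-K1*, chr17:34000348-34000477, minus strand, the 130 bases before the start: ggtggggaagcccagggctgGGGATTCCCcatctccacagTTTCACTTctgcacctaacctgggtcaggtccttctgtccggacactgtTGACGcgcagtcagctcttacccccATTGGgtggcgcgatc
*B2m*, chr2:122147537-122147685, plus strand, from 150 to 2 bases before the start: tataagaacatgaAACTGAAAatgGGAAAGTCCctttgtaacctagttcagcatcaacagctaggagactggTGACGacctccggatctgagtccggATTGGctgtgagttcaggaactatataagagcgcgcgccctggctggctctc
*H2-K1*, chr17:34000428-34000457, minus strand, 30 bases: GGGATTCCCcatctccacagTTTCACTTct
*H2-D1*, chr17:35262924-35262953, plus strand, 30 bases: GGGATTCCCcatctcctcagTTTCACTTct

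GGGATTCCC was in the windows of *H2-K1* and *H2-D1* and in 0.301% of all 32851 promoter windows. It is followed in both by TTTCACTT, which is AANNGAAA on the other strand (21.3% of windows), and the 30 bases that hold the motifs differ in 1 base. In *B2m* the order is inverted: AACTGAAA comes first, and GGAAAGTCC, which is GGACTTTCC on the other strand (0.283% of windows), after it. TGACG was found for *H2-K1*, *H2-D1*, *B2m*, *Tap1* and *Psmb9* and in 17.8% of windows, and CCAAT, in 33.8% of windows, was found for these 5 and *Tapbp*. The windows of *Tap1* and *Psmb9* overlap on opposite strands. Their TGACG matches are the same bases, and so are their CCAAT matches, so that these are not separate sites. TTCNNNGAA (7.02% of windows) was found for *Psmb8* alone among the 8 genes. A match describes the letters of the reference genome and is neither a bound site nor a cause of any value.

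The transporter subunits encoded by *Tap1* and *Tap2* form 1 channel. *Tap1*, on chromosome 17 from 34187553 to 34197225, was at 0.410 (NL-1), 0.430 (NL-4), 0.297 (NL-5), 0.224 (NL-7) and 0.531 FPKM (NL-8). In the LD retinas it was at 6.13 (LD-1), 12.5 (LD-4), 12.2 (LD-6), 7.60 (LD-7) and 10.9 FPKM (LD-8). The group means of 0.378 ± 0.120 and 9.87 ± 2.85 FPKM (SD, n = 5 each) were 26.1-fold apart, and the log2 difference was 4.37. LD-1 and LD-7 were the lowest LD retinas, and even LD-1 was 11.6 times the highest NL retina.

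*Tap2*, on chromosome 17 from 34203527 to 34216321, differed less. It was at 1.21 (NL-1), 1.53 (NL-4), 1.17 (NL-5), 1.08 (NL-7) and 1.15 FPKM (NL-8), and at 4.65 (LD-1), 5.47 (LD-4), 6.44 (LD-6), 4.68 (LD-7) and 6.95 FPKM (LD-8). NL-4 stood above the other NL retinas, and the lowest LD retina was 3.04 times NL-4. The log2 difference of the means, 1.23 ± 0.175 and 5.64 ± 1.04 FPKM (SD, n = 5 each), was 2.10. As a result, the order of the subunits turned: there was 2.16 to 4.85 times as much *Tap2* as *Tap1* per length in the NL retinas, and 0.437 to 0.759 times as much in the LD retinas.

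Tapasin, encoded by *Tapbp* on chromosome 17 from 33915899 to 33929288, bridges TAP and empty class I molecules. Its FPKM was 16.7 (NL-1), 13.0 (NL-4), 12.4 (NL-5), 12.0 (NL-7) and 15.1 (NL-8), against 42.0 (LD-1), 69.7 (LD-4), 68.7 (LD-6), 50.6 (LD-7) and 78.1 (LD-8). Unlike the transporter, it was well expressed under NL, at 13.9 ± 1.97 FPKM, and stood at 61.8 ± 14.9 FPKM in LD (SD over 5 retinas each), the log2 difference being 2.12. Its span shares 3422 bases with *Zbtb22* on the same strand, so that reads of the shared part cannot be assigned with certainty. *Zbtb22* was at 25.1 ± 1.67 and 35.1 ± 5.31 FPKM (SD, n = 5 each), a log2 difference of 0.47 (adjusted p = 0.00515 in limma, fold below 2).

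The inducible subunits beta5i, beta1i and beta2i, encoded by *Psmb8*, *Psmb9* and *Psmb10*, take the places of the constitutive subunits encoded by *Psmb5*, *Psmb6* and *Psmb7*. *Psmb8*, on chromosome 17 from 34197721 to 34201454, was at 0.598 (NL-1), 0.465 (NL-4), 0.342 (NL-5), 0.413 (NL-7) and 0.326 FPKM (NL-8). Under LD it was at 6.31 (LD-1), 6.90 (LD-4), 6.42 (LD-6), 5.94 (LD-7) and 6.26 FPKM (LD-8). The LD retinas were close together, the highest being 1.16 times the lowest, the narrowest LD range of the 10 genes. The log2 difference was 3.63 for means of 0.429 ± 0.110 and 6.37 ± 0.350 FPKM (SD, n = 5 each).

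*Psmb9* lies on chromosome 17 from 34181988 to 34187764, head to head with *Tap1*, with 212 bases shared. It was at 0.332 (NL-1), 0.373 (NL-4), 0.242 (NL-5), 0.219 (NL-7) and 0.318 FPKM (NL-8), and at 2.77 (LD-1), 6.27 (LD-4), 6.39 (LD-6), 3.22 (LD-7) and 4.67 FPKM (LD-8). Its LD range was the widest of the 10, the highest retina being 2.31 times the lowest, and LD-1 and LD-7 were the low ones, as for *Tap1*. The means were 0.297 ± 0.0644 and 4.66 ± 1.68 FPKM (SD, n = 5 each), a log2 difference of 3.52.

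*Psmb10*, on chromosome 8 from 105935735 to 105938444, was already expressed under NL. Its NL values of 6.31 (NL-1), 6.41 (NL-4), 6.21 (NL-5), 6.52 (NL-7) and 6.05 FPKM (NL-8) had the narrowest range of the 10 genes, 1.08-fold. Its LD values were 24.2 (LD-1), 31.7 (LD-4), 33.6 (LD-6), 24.6 (LD-7) and 30.3 FPKM (LD-8), with LD-1 and LD-7 low once more. The log2 difference of the means, 6.30 ± 0.181 and 28.9 ± 4.25 FPKM (SD, n = 5 each), was 2.17.

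The constitutive counterparts moved little. *Psmb5* was at 36.5 ± 1.78 FPKM in NL and 43.0 ± 2.27 FPKM in LD, *Psmb6* at 40.8 ± 1.03 and 43.8 ± 2.54, and *Psmb7* at 19.0 ± 0.947 and 20.5 ± 1.09 (SD, n = 5 each). None of the 3 was called: their log2 differences were 0.23, 0.10 and 0.11, with limma adjusted p of 0.00499, 0.132 and 0.141, the first being past the p threshold but under a 2-fold change. Of the 3, 1 had an unadjusted p under 0.05, and limma-voom on the recovered reads called 0.

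Set against their counterparts, the inducible subunits differed from one another. *Psmb8* was at 0.00893 to 0.0173 of *Psmb5* FPKM in the NL and at 0.137 to 0.159 in the LD retinas. *Psmb9* was at 0.00530 to 0.00911 of *Psmb6* in NL and at 0.0686 to 0.138 in LD. *Psmb10* was at 0.323 to 0.341 of *Psmb7* in NL and at 1.26 to 1.55 in LD, so that it alone passed its counterpart per length. In reads, *Psmb10* stayed below *Psmb7* in LD, at 957 to 1283 against 1458 to 1657. The gene lengths behind these FPKM are 1705 and 3421 bases. Among the 6 catalytic subunits they run from 899 bases (*Psmb5*) to 3659 bases (*Psmb9*), and the ratios and shares given here depend on them. The 3 inducible subunits together made up 6.80 ± 0.241% of the FPKM of the 6 catalytic subunits in NL and 27.0 ± 2.18% in LD (SD, n = 5 each). *Psmb10* held 87.1% to 91.4% of the inducible sum in NL and 70.6% to 73.5% in LD.

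**Figure D2:**
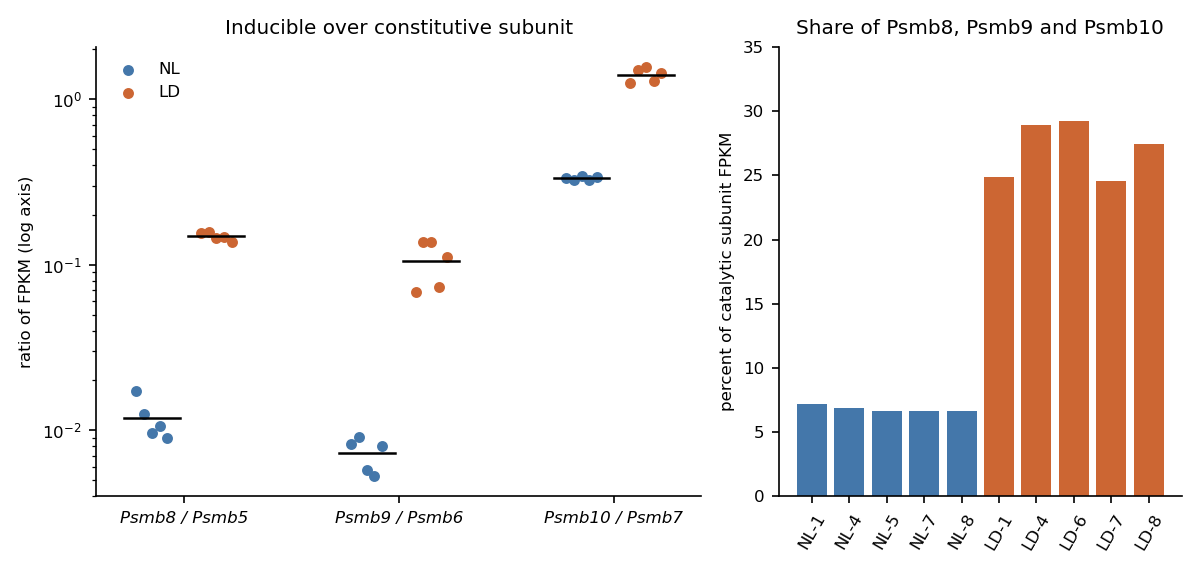
Left, ratio of FPKM of each inducible proteasome subunit to its constitutive counterpart (log axis) per retina, NL in blue and LD in orange, with black lines at the group means. Right, the share of *Psmb8*, *Psmb9* and *Psmb10* in the summed FPKM of the 6 catalytic subunits, which was 6.63% to 7.18% in the NL and 24.6% to 29.2% in the LD retinas.

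*Nlrc5* encodes the transactivator of class I genes and is itself induced by interferon. It lies on chromosome 8 from 94434356 to 94527272 and had the lowest NL level of the 10 genes. Its FPKM was 0.193 (NL-1), 0.188 (NL-4), 0.0870 (NL-5), 0.166 (NL-7) and 0.164 (NL-8), which rests on 15 to 36 reads per retina. After LD it was 8.65 (LD-1), 12.9 (LD-4), 13.7 (LD-6), 11.9 (LD-7) and 10.8 (LD-8), from 1792 to 2595 reads. The lowest LD retina was 44.9 times the highest NL retina, and the means of 0.160 ± 0.0426 and 11.6 ± 1.96 FPKM (SD, n = 5 each) were 72.4-fold apart, the widest gap of the 10. The log2 difference of 5.49 is held down by the pseudocount of 0.1, and it was 6.18 by limma-voom on the recovered reads. The long noncoding gene *9330175E14Rik* overlaps *Nlrc5* by 748 bases on the opposite strand and differed likewise, at 0.0292 ± 0.0162 FPKM in NL and 5.73 ± 1.27 FPKM in LD (SD, n = 5), with a log2 difference of 5.47 (adjusted p = 2.96e-08 in limma). Whether the counting used strand is not given in the sources used here, so that reads of these overlapping genes cannot be told apart where they overlap.

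The other genes that overlap 1 of the 10 were low. On the opposite strand, *Gm16156* (over *Psmb10*) was at 0.187 FPKM in NL and 0.375 FPKM in LD on average, *Gm15821* (over *Tap2*) at 0.104 and 0.646, *Gm20496* (over *Psmb8* and *Tap2*) at 0 and 0.111, and *Gm19412* (over *Tapbp*) at 0 and 0.0708. On the same strand as *Nlrc5*, *Mir7072* was at 0 and 0.903 FPKM.

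The class II counterpart of *Nlrc5*, *Ciita*, did not follow. It was at 0.429 to 0.541 FPKM in the NL and 0.318 to 0.460 FPKM in the LD retinas, and its log2 difference of -0.16 had a limma adjusted p of 0.485. Of 7 class II pathway genes tested, 3 rose, where 4.13% of all genes rose. At an unadjusted limma p under 0.05, 5 were higher and 0 lower, and limma-voom called 3 higher. The 3 that rose were at low levels: *H2-Aa* went to 0.301 ± 0.0600, *H2-Eb1* to 0.775 ± 0.302 and *H2-DMb1* to 0.895 ± 0.270 FPKM (SD, n = 5 LD retinas). *Cd74* went from 0.768 ± 0.496 to 2.07 ± 0.659 FPKM and *H2-DMa* from 2.59 ± 0.478 to 4.03 ± 0.882 FPKM (SD, n = 5 each). They were not called (log2 differences 1.42 and 0.61, limma adjusted p = 0.0148 and 0.0195). Apart from *Ciita*, these genes were named after their values were seen.

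Ordered by mean FPKM under NL, *H2-D1* came first, then *B2m* and *Tapbp*, whose ranges overlapped, then *Psmb10*, then *H2-K1* and *Tap2*, whose ranges also overlapped. *Psmb8*, *Tap1* and *Psmb9* followed with overlapping ranges, and *Nlrc5* was last, with every NL value below those of the other 9 genes. After LD the order was *H2-D1*, *B2m*, *Tapbp*, *H2-K1*, *Psmb10*, *Nlrc5*, *Tap1*, *Psmb8*, *Tap2* and *Psmb9*. There the ranges of neighbours overlapped except between *B2m* and *Tapbp*, between *Tapbp* and *H2-K1*, and between *Psmb10* and *Nlrc5*. By group mean, *Nlrc5* thus moved from above 7.86% to above 79.8% of the genes tested, and *H2-K1* from above 51.8% to above 94.2%. Already in NL, *H2-D1*, *B2m*, *Tapbp* and *Psmb10* were above 96.7%, 85.5%, 83.2% and 67.0% of the genes tested. *Tap2*, *Psmb8*, *Tap1* and *Psmb9* were above 40.1%, 23.2%, 21.2% and 17.3% there.

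**Figure D3:**
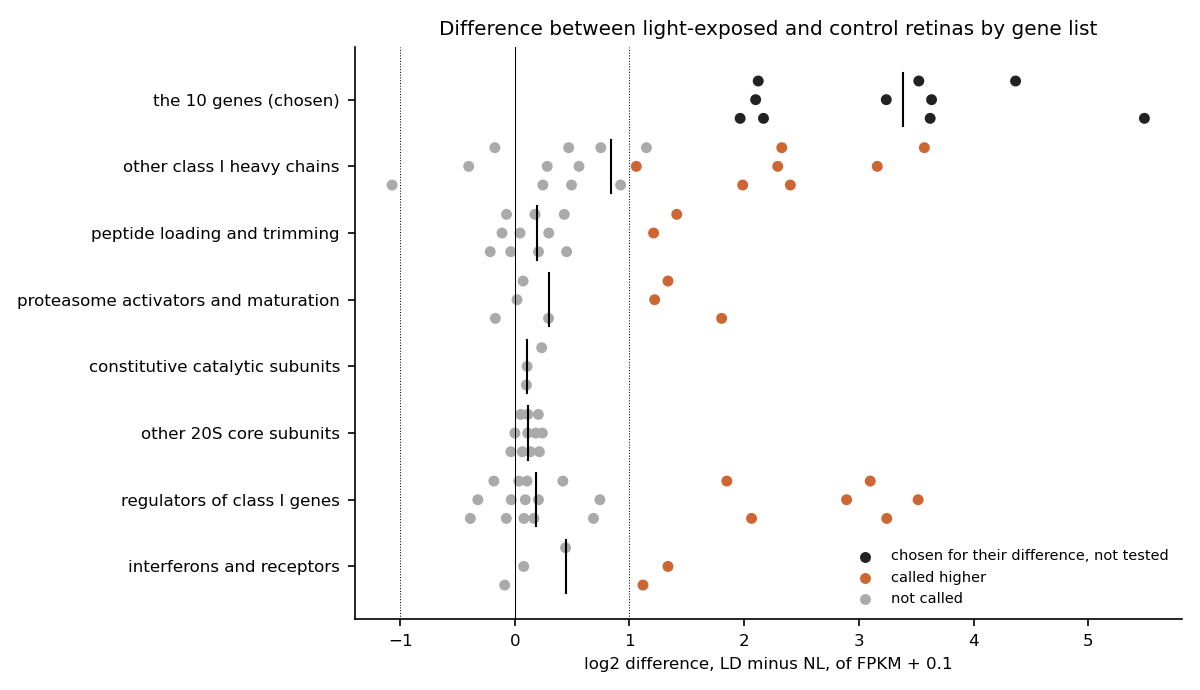
Log2 difference between LD and NL of FPKM + 0.1 for each gene tested, by list, with black lines at the list medians and dotted lines at a 2-fold change. The 10 chosen genes (black) lie at 1.96 to 5.49, the genes called higher (orange) number 20 of 76 in the other lists, and the 20S core and constitutive catalytic subunits all lie within 0.24 of 0.

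Other genes of the pathway were tested in limma over all genes. The table held 94 of the 97 genes in 7 lists, and 76 of them reached 0.1 FPKM in 5 retinas. Of these, 20 rose and 0 fell, where 4.13% of all genes rose and 2.37% fell. At an unadjusted p under 0.05, 44 were higher and 5 lower, and limma-voom on the recovered reads called 20 higher and 0 lower. The median log2 difference of the 76 genes was 0.22.

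Among 18 other class I heavy chain genes, 7 rose. *H2-Q4*, a nonclassical class I gene of the Q region, went from 1.08 ± 0.187 to 14.0 ± 2.75 FPKM (SD over 5 retinas each), which is 3.57 on the log2 scale (SE 0.16, adjusted p = 1.31e-07). *H2-Q6* went from 0.498 ± 0.347 to 5.15 ± 2.55 FPKM (adjusted p = 2.73e-04) and *H2-Q7* from 0.267 ± 0.154 to 1.81 ± 0.653 FPKM (adjusted p = 2.65e-04), and these near-identical copies may share reads. Without NL-4 and NL-8 their NL means were 0.274 and 0.176 FPKM, and both were still called (adjusted p = 3.81e-04 and 5.54e-04). *H2-M3*, which presents formylated peptides, went from 0.527 ± 0.228 to 2.90 ± 0.673 FPKM (adjusted p = 1.83e-04). The pseudogene *H2-T-ps* had 0 to 7 reads in the NL and 13 to 28 reads in the LD retinas (adjusted p = 9.13e-04), and without NL-4 and NL-8 limma gave 0.0103, in a range of adjusted p over the alternatives from 3.17e-04 to 0.0103. *H2-Q1* had 3 reads or fewer in each NL retina, and its LD retinas had 15 to 32, at least 7.90-fold higher than a level of 3 reads in each NL retina (adjusted p = 9.39e-05). The seventh, *H2-Q2*, had 0 to 4 and 6 to 9 reads (adjusted p = 0.00315), and its call was lost under 7 of 22 alternatives, among them both other pseudocounts and leaving out NL-1 or NL-5, with log2 differences down to 0.17 and adjusted p up to 0.0501.

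Apart from *H2-T-ps*, the 4 T-region genes tested were not called with all 10 retinas. *H2-T23*, the gene of Qa-1, was at 0.631 ± 0.602 and 0.742 ± 0.122 FPKM (adjusted p = 0.418), with 1.68 FPKM in NL-4 and 0.604 FPKM in NL-8. Without these its NL mean was 0.291 ± 0.0639 FPKM (SD, n = 3), and it was called higher, with a log2 difference of 1.11 (adjusted p = 0.00671 in limma). *H2-T22* was at 0.682 ± 0.316 and 0.572 ± 0.181 FPKM (adjusted p = 0.707), with 1.16 FPKM in NL-4 and 0.852 FPKM in NL-8. Without these its NL mean was 0.466 ± 0.0470 FPKM (SD, n = 3), so that LD was no longer below NL (log2 difference 0.21, adjusted p = 0.618 in limma). *H2-T10* was at 1.18 ± 0.635 and 2.35 ± 0.196 FPKM (adjusted p = 0.0535), and without NL-4 and NL-8 its log2 difference was 0.53 (adjusted p = 0.0205 in limma). NL-4, the retina with the least *H2-K1* and *H2-D1*, also had the least *H2-T10*, at 0.262 FPKM. *H2-T24* was at 1.32 ± 0.222 and 2.67 ± 0.844 FPKM (adjusted p = 0.00702), and its log2 difference of 0.92 was under the 2-fold limit on the scale of log2(FPKM + 0.1). Without NL-4 and NL-8 it was 1.06 (adjusted p = 0.0176 in limma). These 4 genes were named after their values were seen.

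In peptide loading and trimming, 2 of 12 genes rose. The trimming aminopeptidase *Erap1* went from 1.95 ± 0.477 to 5.25 ± 0.361 FPKM, a log2 difference of 1.41 (adjusted p = 3.62e-05). *Tapbpl*, the gene of the tapasin-related peptide editor TAPBPR, went from 3.04 ± 0.212 to 7.22 ± 1.09 FPKM, a log2 difference of 1.21 (adjusted p = 1.38e-05). The other 10 genes had log2 differences of less than 0.46 in size.

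Of 7 proteasome activator and maturation genes, 3 rose, all of them coding for the PA28 activator that interferon induces. *Psme1* went from 12.1 ± 0.371 to 30.7 ± 0.734 FPKM (SD over 5 retinas each), which is 1.34 on the log2 scale (SE 0.04, adjusted p = 5.59e-09). *Psme2* was at 9.33 to 11.3 FPKM in NL and 20.7 to 25.1 FPKM in LD (log2 difference 1.22, adjusted p = 5.90e-07), and its copy *Psme2b* from 6.52 ± 1.64 to 22.7 ± 3.32 FPKM (log2 difference 1.80, adjusted p = 1.52e-05), so that the split between them is uncertain. Of 11 other 20S core subunits 0 were called, with a median log2 difference of 0.11, 7 higher and 0 lower at an unadjusted p under 0.05, and 0 called by limma-voom.

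Among 20 regulators of class I genes, 6 rose. *Irf1*, which activates class I and immunoproteasome promoters, was at 1.11 to 1.54 FPKM in the NL retinas and at 10.8 (LD-1), 22.4 (LD-4), 20.6 (LD-6), 12.4 (LD-7) and 18.9 FPKM (LD-8), a log2 difference of 3.52 (SE 0.20, adjusted p = 8.29e-07). LD-1 and LD-7 were its lowest LD retinas, as for *Tap1* and *Psmb9*. *Stat2* and *Irf9*, which transmit the type I interferon signal, had log2 differences of 2.06 (adjusted p = 4.19e-08) and 2.89 (adjusted p = 3.25e-08).

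The remaining regulators called were *Irf8*, an interferon-response factor of myeloid cells, with a log2 difference of 3.24 (adjusted p = 1.67e-07), *Socs1*, a feedback inhibitor of JAK-STAT signalling, with 3.10 (adjusted p = 1.57e-06), and *Stat3*, the transducer of the IL-6 family, with 1.85 (adjusted p = 1.25e-06). The DNA-binding partners of NLRC5 were not called. *Rfx5*, *Rfxap* and *Rfxank* had log2 differences of -0.03, 0.17 and 0.09 (adjusted p = 0.691, 0.139 and 0.765). *Nfya*, *Nfyb* and *Nfyc* had -0.39, -0.32 and -0.18 (limma adjusted p = 0.224, 0.00607 and 0.0572). *Nfyb* was lower in every LD retina than in any NL retina, but under a 2-fold change. *Creb1* and *Atf1* had 0.21 and 0.08 (limma adjusted p = 0.121 and 0.535). The NF-kB subunit gene *Rela* had a log2 difference of 0.69 (adjusted p = 2.04e-05), below the 2-fold limit. The genes not called here were named after their values were seen.

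Interferon transcripts themselves were hardly seen. No NL retina had a read of *Ifng* or *Ifnb1* (0 reads), and no LD retina had more than 1 read of the former or 3 of the latter. A count of 0 allows up to 3 reads per retina, by counting error alone, so that low levels were not detectable at this depth. Of 5 receptor genes tested, *Ifnar2* rose from 2.05 ± 0.306 to 4.62 ± 1.07 FPKM (SD, n = 5 each, log2 difference 1.12, adjusted p = 4.41e-04). *Ifnlr1* was called at 0.0616 ± 0.0397 and 0.313 ± 0.121 FPKM (adjusted p = 0.00374), but lost its call without NL-1, LD-4, LD-6 or LD-7, at adjusted p of 0.0102 to 0.0116 (range over the alternatives 0.00246 to 0.0479).

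Markers of other cells were read in the same retinas. Of 10 microglia and macrophage markers, 7 rose, and the list summed to 21.7 to 36.7 FPKM in NL and 49.8 to 117 FPKM in LD, with *Cd68* at 1.78 ± 0.337 and 9.90 ± 1.80 FPKM, while the homeostatic microglia gene *P2ry12* was at 2.03 ± 0.278 and 1.32 ± 0.747 FPKM (SD, n = 5 each). Of 14 markers of recruited leukocytes, 4 passed the filter and 0 were called in limma or in limma-voom, with 1 at an unadjusted p under 0.05, and the list summed to 0.602 to 1.30 FPKM in NL and 0.914 to 1.80 FPKM in LD. Of its defining genes, *Ms4a1* of B cells was at 0 in all 10 retinas, and *Cd3e* and *Cd3d* of T cells, *Ly6g* of neutrophils and *Nkg7* of cytotoxic cells had at most 3 reads in any retina. The monocyte genes of the list, *Ly6c2* and *Ccr2*, were below the filter but higher in every LD retina than in any NL retina: *Ly6c2* had 0 reads in each NL retina and 4 to 17 in the LD retinas, and *Ccr2* had 0 to 1 and 2 to 21. Both were named after their values were seen. Of 5 Muller glia markers, *Glul* fell from 711 ± 94.8 to 165 ± 8.77 FPKM (SD, n = 5 each, adjusted p = 1.99e-07 in limma). *Vim* rose from 25.5 ± 6.32 to 104 ± 21.8 FPKM (SD, n = 5 each, adjusted p = 2.16e-05 in limma). The list summed to 832 to 1055 FPKM in NL and 367 to 515 FPKM in LD, with *Glul* the largest term in every retina. The other markers did not share a fall. *Slc1a3* was higher in every LD retina than in any NL retina, at 26.2 ± 1.79 and 37.5 ± 7.58 FPKM (SD, n = 5 each), but was not called (adjusted p = 0.0109 in limma). *Rlbp1* and *Aqp4* had log2 differences of -0.52 and 0.08 (adjusted p = 0.109 and 0.733 in limma). The markers not called were named after their values were seen. The part of these cells in the levels of the 10 genes was not tested.

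Within the LD group the genes did not order the retinas alike. For 9 of the 10 genes, all but *B2m*, both LD-4 and LD-6 were above both LD-1 and LD-7, which was so for 29.7% of all genes tested and 46.2% of those that rose. This order was looked at after the values were seen, and it compares 2 pairs of retinas that are alike throughout. LD-1 was the lowest LD retina for 7 of the 10 genes. Beside this, the photoreceptor markers summed to 768 and 821 FPKM in LD-4 and LD-6 and to 1603 and 1310 FPKM in LD-1 and LD-7. The endothelial markers summed to 81.6 and 80.7 against 48.0 and 48.4 FPKM, the Muller glia markers to 499 and 515 against 384 and 367 FPKM, and the pigment epithelium markers to 96.8 and 100.7 against 57.3 and 74.9 FPKM. The microglia and macrophage markers ran the other way, with 71.1 and 72.5 against 117 and 102 FPKM. Each endothelial marker had the order of its sum, and so had each Muller glia marker but *Glul*. In the pigment epithelium sum *Ttr* was the largest term, and *Rpe65* and *Best1* did not have its order. In LD-4 and LD-6 against LD-1 and LD-7, *Rpe65* was at 5.84 and 5.22 against 5.20 and 6.86 FPKM. *Best1* was at 0.367 and 0.395 against 0.534 and 0.510 FPKM. The part of these cells in the order was not tested.

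The deviations of the 10 retinas from their group means were compared between genes, as a description over 10 retinas that share library depth and sample composition. Pearson's r had a median of 0.26 over the 45 pairs of genes. The closest pairs were *Tap1* and *Psmb9*, the head-to-head neighbours, with 0.91, *Psmb9* and *Psmb10* with 0.86, and *Tap1* and *Tapbp* with 0.85. At the other end, *H2-K1* had -0.50 with *Tap2* and -0.35 with *Tap1*. *H2-K1* and *H2-D1* had 0.67 with each other, with NL-4 and NL-8 low in both.

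**Figure D4:**
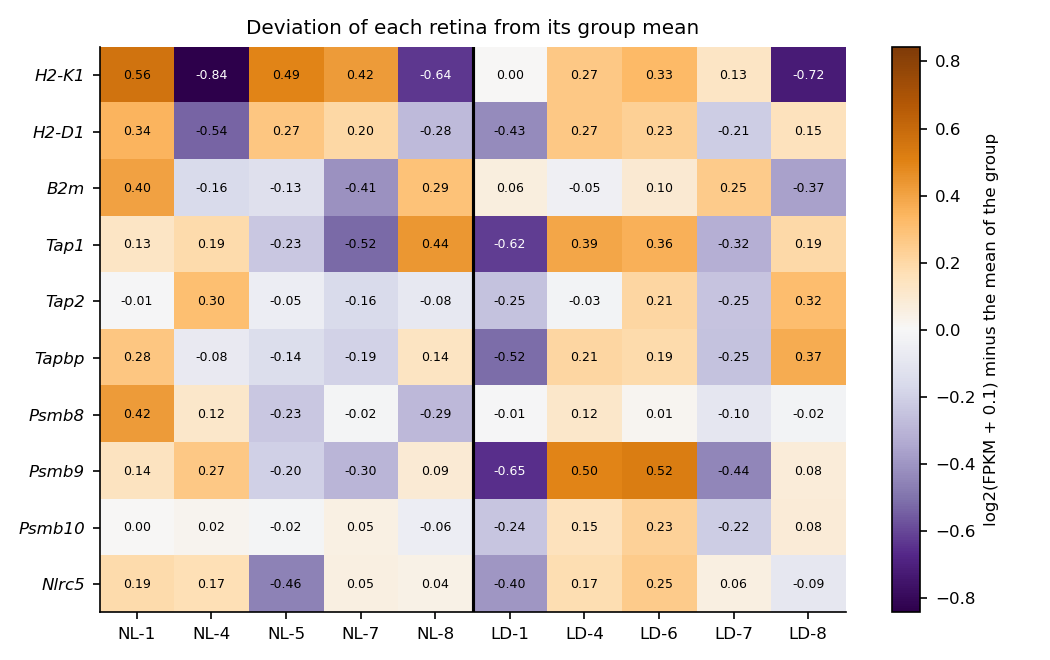
Deviation of log2(FPKM + 0.1) from the mean of its group for each of the 10 genes (rows) and each retina (columns), with NL left and LD right of the black line. *Tap1*, *Tapbp*, *Psmb9* and *Psmb10* are negative in LD-1 and LD-7 and positive in the other LD retinas, whereas *H2-K1* is most negative in NL-4, NL-8 and LD-8.

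Among 12418 other protein-coding genes averaging 1 FPKM or more, those whose deviations were most like the average deviation of the 10 genes were *Nxn* (r = 0.97), *Sema7a* (0.97), *Foxn3* (0.96), *Cdsn* (0.96) and *Cnn3* (0.95), over 10 retinas. They differed in their response: *Cdsn* was called higher (log2 difference 3.70, adjusted p = 0.00339), *Nxn* and *Cnn3* had log2 differences of 0.71 and 0.96, and *Sema7a* and *Foxn3* had -0.22 and -0.10 (adjusted p = 0.148 and 0.339).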

How the data were processed

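The file deposited by the authors holds FPKM of 54532 genes in 10 retinas, made and normalized by a company. The submitters' processing notes name Bowtie2 2.0.6, TopHat2 2.0.9 and mm8, but 53585 of the 54495 identifiers shared with GENCODE M21 have its GRCm38 position. The counting program and its use of strand are not given in the sources used here. All values (100%, within 0.05 reads) were whole multiples of the worth of 1 read. The reads were recovered, to 18965090 to 26832535 per retina, and the library sizes behind the FPKM were the sums times 0.951 to 0.968 in NL and 1.04 to 1.07 in LD.

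From these, log2(FPKM + 0.1) was computed, and the groups were compared by limma 3.58.1 (R 4.3.3, intensity trend, no block) over the 24508 genes that reached 0.1 FPKM in 5 or more retinas, with Benjamini-Hochberg adjustment over all of them. Called genes had an adjusted p below 0.01 and were over 2-fold apart, the thresholds of the study. A fold change on this scale understates low genes. The model was tested on simulated data with independent retinas and the same dispersion for all genes. That simulation does not cover the pairs of alike retinas in these data. Tables and plots were made in Python 3.11.15 with pandas 2.3.3 and matplotlib 3.10.9.

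The genes, lists and rules were chosen with earlier results of these data known. Named were all 10 genes, up to 20 called pathway genes by size of change, the 3 constitutive catalytic subunits, *Ciita*, *Ifng*, *Ifnb1*, overlapping genes, and the 5 genes most alike in deviations. *H2-Bl* was named outside these rules. Alternatives changed the pseudocount, filter, scaling, trend, test, threshold, block and retinas. Some genes are not reported here and were left out of the lists. Leaving out NL-4 and NL-8 together was added after the data were seen. Same-numbered retinas had correlations of their deviations of -0.09 to 0.07.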

Additional observations from a re-analysis of the deposited data

Results flagged for a closer look

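In 72 groups of 5 values examined for a retina far from the others of its group, 4 were found, where chance gives about 1 in 20 groups, or 3.60. *H2-Bl* had 35.7 FPKM in NL-8 and 0 to 0.167 FPKM elsewhere in NL. It was put among the genes examined by name, without being called, so its flag cannot be set against the chance figure. *Tap2* was at 1.53 FPKM in NL-4, against 1.08 to 1.21. *Nlrc5* was at 0.0870 FPKM in NL-5, against 0.164 to 0.193. *Psme1* was at 12.7 FPKM in NL-1, against 11.8 to 12.0. No cause was tested. Among genes of at least 500 bases and 1 FPKM, *H2-Bl* was the only one in NL-8 with at least 10 times the level of every other retina, and the other retinas had 0 to 2 such genes each.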

How the results depend on the processing

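All 10 genes stayed higher after LD under every alternative run, which is a description, since they were chosen for this difference. With a pseudocount of 1 their median log2 difference was 2.22, and 816 genes were called. Without a minimum fold change and with an adjusted p under 0.05, 6818 genes and 40 of the 76 pathway genes were called (38 higher, 2 lower). Leaving out single retinas gave a median of 3.29 to 3.45, 1379 to 1603 genes, 18 to 21 pathway genes and an inducible subunit share of 26.5% to 27.6%. Without the factor per retina the median of all genes was 0.11. Then 1201 genes were higher and 465 lower, with TPM 1200 and 470, against 1013 and 582. Limma-voom on the recovered reads called 1087 higher and 608 lower.

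The retinas share only numbers. With the replicate block (numbers 1, 4, 7 and 8), 808 genes were called, 550 higher, and 13 pathway genes instead of 20, against 1182 and 18 for the same retinas without the block. *H2-Q6*, *H2-Q7*, *H2-M3*, *H2-T-ps*, *H2-Q1*, *H2-Q2* and *Ifnlr1* lost their calls under it. With a pseudocount of 1, *H2-Q1*, *H2-Q2*, *H2-T-ps*, *Ifnlr1* and *Ifnar2* fell below a 2-fold change; these genes have few reads or low FPKM. Averaging the closest pairs left 1083 genes and 18 pathway genes. *Ifnlr1* and *H2-Q2* lost their calls there, and *Ifnlr1* and *H2-T-ps* without NL-4 and NL-8, where *H2-T23* was called and *H2-T22* turned from a log2 difference of -0.17 to 0.21. *H2-Q2* also lost its call with a pseudocount of 0.01, without NL-1, without NL-5 and over the shared numbers unblocked. The cause was not tested.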
